A study of Homo sapiens with 12 samples.

Results

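Gene expression of TIGK cells kept without L-arginine (Arg) was compared between 48 and 24 h of culture. TIGK cells are human keratinocytes of the gingiva that were immortalized by transfection with telomerase (hTERT), so every library comes from one immortalized line. The comparison used all 6 control libraries of the 12 RNA sequencing libraries of the study, 3 at 24 h and 3 at 48 h, taken by their labels (treatment, time, and replicate A, B, or C). The control cells were kept at 48 mM glucose in a base medium that holds no Arg, with lysine, glutamine, insulin, transferrin, epinephrine, TGF-α, pituitary extract, and hydrocortisone added. The other 6 libraries came from cells given 500 μM Arg in the same medium for the same times, and they enter here only to place a control library that stood apart and to set the time change with Arg beside that without it. All cells were seeded in 6-well plates 24 h before the treatment began. The labels do not say that the 3 replicates came from separate cultures, so the p-values measure only the spread between these libraries, which may be technical.

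Cultured keratinocytes go from a growing, migrating state after seeding toward a denser sheet. As the sheet closes, growth factor signalling through the EGF receptor and the MAP kinase cascade usually declines, and cells begin to make the keratins and desmosomes of the layers above the basal one. Amino acid shortage is sensed by the kinase GCN2, whose effector ATF4 raises genes for amino acid supply, and by mTORC1, whose loss of activity lowers protein synthesis and growth. Arg itself is the source of ornithine, and through it of the polyamines.

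The control libraries held between 17787409 and 19040964 counts at 24 h and between 18227010 and 18856468 counts at 48 h, and values below are CPM, counts scaled to a common library size with TMM normalization factors. Of the 58735 genes in the table, 14449 passed the filter on low counts and were tested. Replicates differed by more than sampling noise in every pair, with a chi-square per degree of freedom of 3.66 to 23.9 where noise alone gives about 1. All 16 keratinocyte markers were expressed, and their summed level lay between 46560 and 53966 CPM at 24 h and between 50595 and 53105 CPM at 48 h. The 10 fibroblast markers summed to between 40.7 and 59.8 CPM at 24 h and between 89.5 and 107 CPM at 48 h. Most of that sum was DCN and COL1A1, which rose (log2 fold change 1.08 and 0.97), while COL1A2, COL3A1, PDGFRA, and THY1 had at most 4 counts in any library. FAP (29 to 68 counts per library), ACTA2 (23 to 49), PDGFRB (12 to 23), and LUM (8 to 35) were detected at low level and were not called, and the part of fibroblast-like RNA in the results was not tested. Endothelial markers summed to 3.01 CPM or less at 24 h and to between 4.99 and 6.61 CPM at 48 h, with CDH5 and EMCN at 0 in all 6 libraries. The 6 melanocyte markers summed to between 21.6 and 25.9 CPM at 24 h and between 23.1 and 30.6 CPM at 48 h, nearly all of it MITF, with TYR at 0. The 9 immune markers summed to at most 3.88 CPM, with 4 of them at 0 in all 6 libraries, and the 4 Merkel cell markers to at most 1.19 CPM.

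The library labelled 48 h control B stood apart from the other 48 h controls. On log2 CPM, its root mean square distance was 0.481 to library A and 0.500 to library C, against 0.350 between A and C. It differed by at least 2-fold from the mean of the other 48 h controls in 656 of the 14449 genes (4.54%), against 326 for A and 380 for C. Each library was also placed on its own line from the 24 h to the 48 h controls, drawn without that library. With 0 the 24 h mean and 1 the 48 h mean, A lay at 0.714, C at 0.663, and B at 1.05. The lines differ, since 1 is the mean of A and C on the line for B but includes B on those for A and C. These values therefore do not rank the 48 h libraries. Lines of the same kind put 24 h library B at 0.433, beside 0.0309 for 24 h A and 0.0529 for 24 h C. By distance, 24 h library B was the 24 h library nearest to 48 h library B (0.612, against 0.736 for A and 0.722 for C).

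When all 12 libraries were compared, the nearest library to 48 h control B was not a control. Its smallest distances were 0.443 to Arg library A and 0.486 to Arg library B at 48 h. On the first principal component, it scored 38.6, next to the Arg libraries at 48 h (31.7 to 34.6), while 48 h controls A and C scored 9.08 and 5.21. Among 42 genes that differed by at least 2-fold between the mean of the Arg libraries at 48 h and the mean of controls A and C, library B was nearer to the Arg mean in 40 (95.2%). A set of genes chosen without any 48 h library gave a like picture: of 398 genes called higher with Arg at 24 h, library B lay above both other 48 h controls in 293 (73.6%), against 61 for A and 44 for C. Of 549 genes called lower with Arg at 24 h, it lay below both in 428 (78.0%), against 48 and 73.

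**Figure D1:**
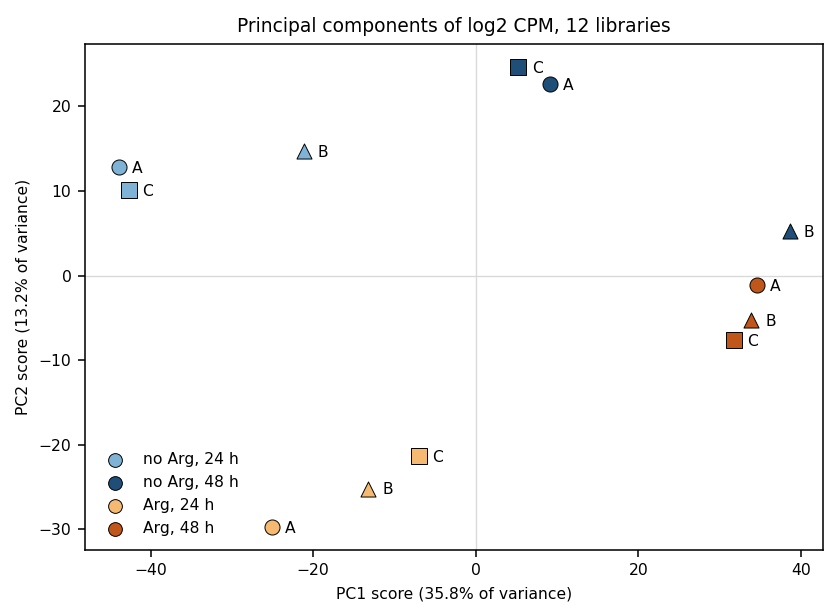
Scores of the 12 libraries on the first 2 principal components of log2 CPM (35.8% and 13.2% of the variance), with color for the group and the letter for the replicate. Control library B at 48 h (38.6 on the first component) lies beside the Arg libraries at 48 h, and control B at 24 h (-21.1) lies between the other 24 h controls and the 48 h controls.

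The genes with the largest deviation of 48 h library B from A and C show the same in single values, here scaled over all 12 libraries. IGFBP3, a secreted binding protein of insulin-like growth factors, was at 94.7 and 84.4 CPM in 48 h controls A and C, at 436 CPM in B, with the 3 Arg libraries of that time spanning 188 to 339 CPM. OSBP2, an oxysterol binding protein, was at 18.9 and 19.1 CPM in A and C, at 4.36 CPM in B, and between 4.61 and 5.36 CPM with Arg. UCA1, a long noncoding RNA, was at 29.7 and 31.4 CPM in A and C, at 4.98 CPM in B, and between 4.47 and 5.30 CPM with Arg. All 10 genes of this kind (CXCL14, ARRDC3, FREM2, and NOTCH3 beside IGFBP3 on the high side, and HSPA6, TFPI2, and ETV5 beside OSBP2 and UCA1 on the low side) were nearer to the Arg mean than to the mean of A and C. CYP1A1 and FOS kept library B with the controls. CYP1A1, a xenobiotic-metabolizing enzyme, was at 20.3 CPM in B, at 20.7 and 19.7 CPM in A and C, and between 26.6 and 40.8 CPM with Arg at 48 h. FOS was at 131 CPM in B, at 135 and 133 CPM in A and C, and between 63.0 and 79.5 CPM with Arg. SKP2, SRSF5, and CDKN1C put library B nearer to the Arg libraries. SKP2 was at 310 CPM in B, at 244 and 252 CPM in A and C, and between 318 and 337 CPM with Arg. SRSF5 was at 148 CPM in B, at 132 and 134 CPM in A and C, and between 152 and 163 CPM with Arg. CDKN1C was at 49.2 CPM in B, at 194 and 161 CPM in A and C, and between 45.5 and 51.9 CPM with Arg. The source of this library's position was not tested. The counts over all genes are given below with and without it, and so are the counts of several lists.

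**Figure D2:**
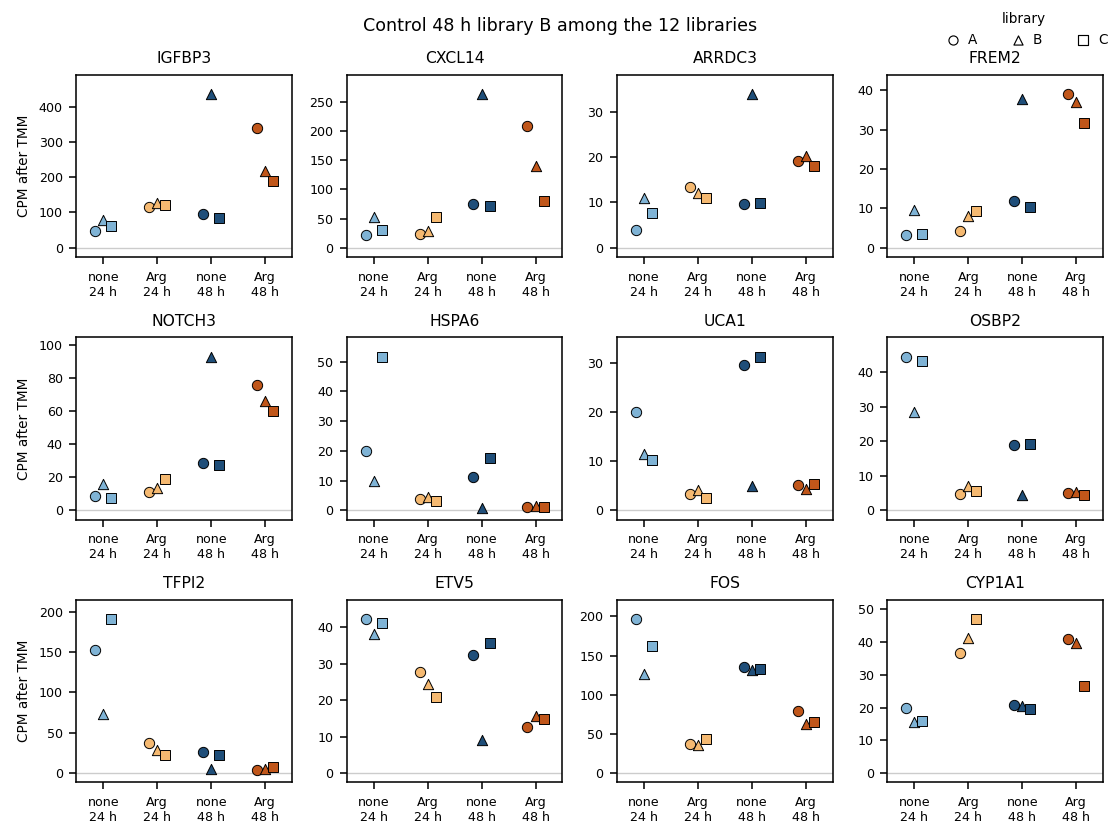
CPM of 12 genes in each of the 12 libraries, with no Arg and Arg side by side at 24 and 48 h and the marker shape for replicates A, B, and C. In the first 10 genes the dark blue triangle (control 48 h B) lies apart from the other 48 h controls and on the side of the Arg libraries, and in FOS and CYP1A1 it lies with the controls.

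Over time without Arg, 1431 genes rose and 1451 fell (edgeR quasi-likelihood test, adjusted p under 0.05), which is 19.9% of the genes tested (9.9% higher and 10% lower). At an unadjusted p under 0.05, the counts were 2470 and 2456, where 722 genes in all would be expected if none changed. The larger changes were mostly increases, since 310 of the called genes rose and 131 fell by at least 2-fold, and 55 rose and 24 fell by at least 4-fold. The 3 libraries of one time did not overlap with those of the other in 5634 genes (39%). Scaling by library size alone gave 1845 higher and 1008 lower, a share of 64.7% higher against 49.7% with TMM. With 48 h library B left out, 1152 genes rose and 1268 fell (16.4% of 14749 genes). Of the calls made with all 6 libraries, 1027 increases (71.8%) and 1134 decreases (78.2%) were also called without it, and none changed sign. Without 24 h library A, only 422 rose and 406 fell, without 24 h library C 497 and 501, and without 48 h library A 912 and 920. Without both B libraries, a fit added after seeing the data, 2177 rose and 2391 fell. Of the 2405 genes called without 48 h library B and tested in both fits, B lay beyond A and C, away from the 24 h controls, in 1424 (59.2%), within or past the range of the 24 h controls in 137, and in neither place in 844.

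Among the 10 increases with the smallest p were CSF1R, AGR2, NUPR1, CLIC3, ID3, PADI4, LAMB2, ZBTB16, and MYH14. CSF1R, a receptor tyrosine kinase best known from macrophages (GRCh38 chromosome 5, 150053291 to 150113372, minus strand), was at 5.19, 4.97, and 3.93 CPM in 24 h libraries A, B, and C and at 16.2, 19.4, and 17.4 CPM at 48 h. Its log2 fold change was 1.91 (SE 0.16, adjusted p = 2.75e-04), and the groups did not overlap. The pseudogene RPL7P1 lies within its span on the other strand and held more counts than CSF1R at 24 h, so reads may be shared. NUPR1, a small stress-induced chromatin protein and an ATF4 target, went from 5.03, 6.32, and 4.28 CPM to 21.7, 30.6, and 19.8 CPM (log2 fold change 2.21, SE 0.20, adjusted p = 2.75e-04). CLIC3, an intracellular chloride channel protein, went from 26.1, 39.3, and 20.5 CPM to 118, 149, and 107 CPM (log2 fold change 2.12, SE 0.20). In each of these, all 3 libraries at 48 h were above all 3 at 24 h. PADI4, which converts protein arginine to citrulline, was low at 24 h (1.41 to 1.75 CPM) and between 7.24 and 11.3 CPM at 48 h (log2 fold change 2.48, SE 0.24). ID3 (1.36), an inhibitor of basic helix-loop-helix factors, and AGR2 (1.43), a disulfide isomerase of the endoplasmic reticulum, rose by similar amounts. ZBTB16 (1.84), a zinc finger factor that responds to glucocorticoids, LAMB2 (1.12), a laminin chain, and MYH14 (1.24), a nonmuscle myosin heavy chain, completed the group. All 10 kept their calls in every one of the 17 alternative fits.

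The 10 decreases with the smallest p were HSPA8, MT-RNR1, KRT17, DUSP6, SLC38A5, SNHG3, SOX9, MMP1, SEH1L, and SERPINE2. HSPA8, the constitutive cytosolic HSP70 chaperone (chromosome 11, 123057489 to 123063230, minus strand), had the smallest p of all genes and fell from 3766 ± 386 CPM to 1699 ± 105 CPM (SD, n = 3). Its libraries were at 3689.5, 3425, and 4185 CPM at 24 h and at 1721, 1585, and 1790.1 CPM at 48 h, which gives a log2 fold change of -1.15 (SE 0.08, adjusted p = 1.09e-04). KRT17, a keratin of activated and wounded epithelium (chromosome 17, 41619441 to 41624842, minus strand), fell from 3755 ± 193 CPM to 2326 ± 35.1 CPM (log2 fold change -0.69, SE 0.06). The 48 h libraries of both genes lay close together, library B included. The collagenase MMP1 fell most among the 10, from 28.4, 18.8, and 59.3 CPM to 2.94, 1.25, and 3.65 CPM (log2 fold change -3.76, SE 0.42). SERPINE2, a secreted protease inhibitor, fell by 2.37 on the log2 scale, and DUSP6, the phosphatase that switches off ERK, also fell (-1.80). SOX9, a transcription factor of epithelial progenitors, fell by 1.26, the glutamine transporter SLC38A5 by 0.91, and the nucleoporin SEH1L by 0.60. SNHG3, a host of small nucleolar RNAs, fell by 1.06, but it lies within the span of RCC1, and reads of overlapping genes may be shared because the strand setting of the counting is not stated. MT-RNR1, the mitochondrial 12S ribosomal RNA, fell by 1.03 and is taken up with the mitochondrial transcripts below. No call among these 10 was lost in the 17 alternatives (16 for MT-RNR1, which one of them leaves out).

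**Figure D3:**
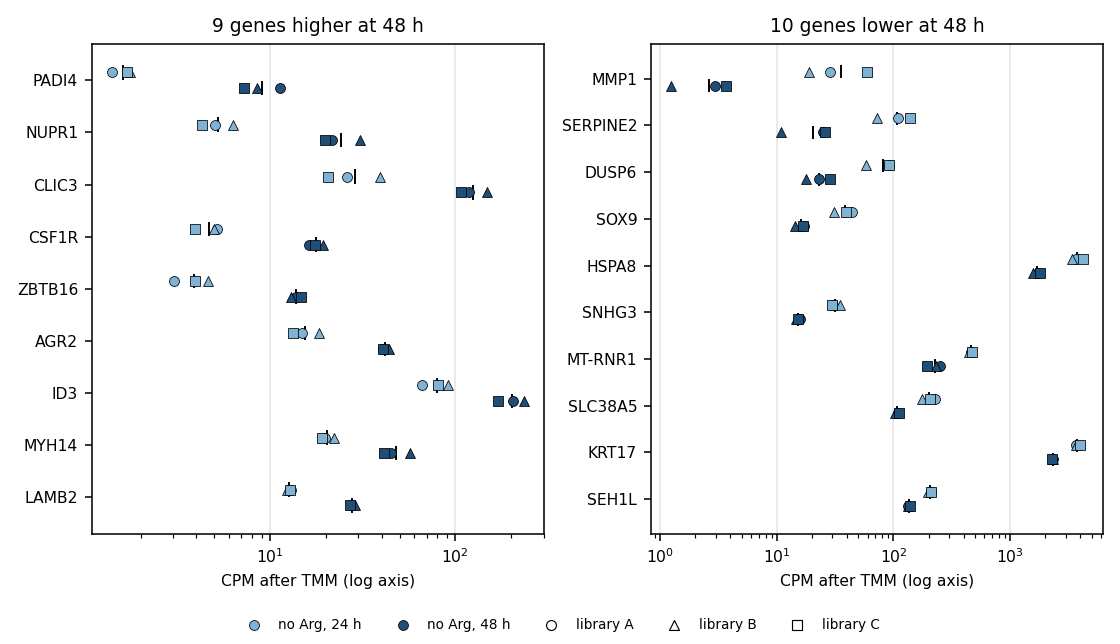
CPM on a log axis of 9 of the 10 increases (left) and the 10 decreases (right) with the smallest p, with light points for 24 h, dark points for 48 h, marker shapes for libraries A, B, and C, and a bar at each group mean. In each gene shown the points of the 2 times do not overlap, and library B at 48 h is the most distant from the 24 h points in CLIC3, DUSP6, and SERPINE2 among others.

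Keratins and junction proteins of the layers above the basal one rose. Of 44 tested members of the suprabasal and cornified envelope list (56 listed), 13 rose (29.5%) and 3 fell (6.82%). Over all genes tested, 9.9% rose and 10% fell. The median log2 fold change of the list was 0.29, beside 0.01 over all genes. KRT13, the keratin of the stratified lining of the mouth, was at 572, 1039, and 698 CPM at 24 h and at 1527, 3462, and 1432 CPM at 48 h (log2 fold change 1.48, SE 0.30, adjusted p = 0.007). KRT10, the keratin of cornifying layers, was at 157, 239.9, and 195 CPM at 24 h and at 395, 967, and 345 CPM at 48 h (1.53, SE 0.31). In both, library B was the highest at its time, and without 48 h library B the log2 fold changes were 0.94 and 0.91. KRT4, the partner of KRT13, rose by 1.76 and was called in all alternatives, while LY6D, at or below 1.30 CPM in the 24 h libraries, rose by 1.55 with adjusted p = 0.0207. ECM1 (-0.68), an extracellular matrix protein, SPRR1B (-0.34), a cornified envelope precursor, and ELOVL4 (-0.39), a fatty acid elongase, fell. Omission of 48 h library B left 12 increases and 1 decrease, that of ECM1, and without 24 h library A 5 members rose. In bulk RNA, more cells of a differentiated type and more of its RNA per cell cannot be told apart.

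Desmosomes, the plaques that bind neighboring keratinocytes, showed the same direction. Of 28 tested members of the desmosome, tight and gap junction list, 13 rose (46.4%) and 3 fell (10.7%), with a median of 0.42. Over all genes 9.9% rose and 10% fell. The desmosomal cadherin DSG3 was at 81.7, 139.7, and 104 CPM at 24 h and at 206, 353, and 190.5 CPM at 48 h (log2 fold change 1.20, SE 0.22, adjusted p = 0.00495). DSG1 (1.45), DSC2 (1.21), and the plaque protein PKP1 (1.06) rose with it. Leaving out 48 h library B gave 11 increases and 3 decreases (median 0.26) with DSG1 at 0.68, DSC2 at 0.75, and DSG3 at 0.87, and leaving out 24 h library A, which ended the calls of DSG1 and DSC2, gave 4 and 1. Of 35 regulators of differentiation, 11 rose (31.4%) and 1 fell (2.86%), with a median of 0.25. The increases include the transcription factors ZNF750 (2.85), MAF (1.89), and GRHL3 (1.61) and the receptor NOTCH3 (2.24). Leaving out 48 h library B put MAF at 1.06, GRHL3 at 1.47, and NOTCH3 at 1.42. ZNF750 was at 0.865, 1.19, and 0.520 CPM at 24 h and at 2.47, 13.3, and 2.95 CPM at 48 h, with library B far above the others, and without that library its log2 fold change was 1.65 (adjusted p = 0.0149). The calls of ZNF750 and MAF were lost without 24 h library A or C. ZNF750 and GRHL3 overlap TBCD and STPG1. With 1 library left out at a time, between 4 and 13 regulators rose.

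The basal and wound-associated genes moved in both directions. Of 16 genes of the basal layer and hemidesmosome, 4 rose (25%) and 5 fell (31.25%), beside 9.9% and 10% of all genes (median -0.09). Without 48 h library B 3 rose and 3 fell. KRT15, a keratin of basal progenitors, rose by 1.54 and the anchoring collagen COL7A1 by 0.92, while the integrin chain ITGA2 fell by 1.12. Of 5 wound keratins, KRT16 rose by 0.96 while KRT17 and KRT6B (-0.63) fell, so keratins of the same state did not move together. KRT6A, KRT6B, and KRT6C are near-identical, as are KRT16 and KRT17 in part, and their counts depend on how shared reads were handled. Among the simple epithelial keratins, KRT19 rose by 1.11 and KRT8 by 0.43, and KRT18 (-0.37) fell, a call that 5 of the 6 single-library omissions ended. KRT8 and KRT18 overlap each other.

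**Figure D4:**
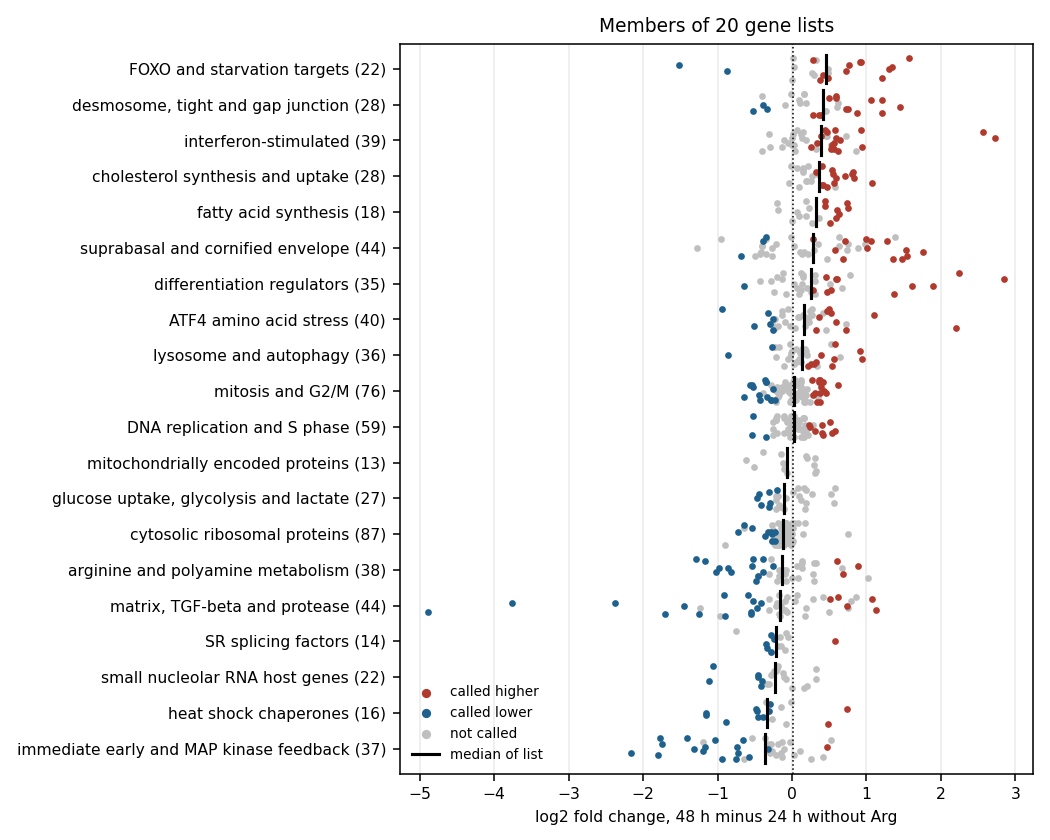
Log2 fold change (48 h minus 24 h without Arg) of each tested member of 20 gene lists, with the number tested in parentheses, red and blue points for members called higher and lower, grey for members not called, black bars for list medians, and a dotted line at the median of all genes. Called members of the cholesterol, fatty acid, and interferon lists lie on the right only, and those of the immediate early list lie on the left with FOSL2 as the exception.

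Transcripts of the growth factor and MAP kinase response fell. Of 37 tested immediate early and MAP kinase feedback genes, 16 fell and 1 rose (median -0.37), where 10% of all genes fell and 9.9% rose. FOSL1, an AP-1 subunit induced by sustained ERK activity, was at 149.6, 79.1, and 144 CPM at 24 h and at 41.5, 24.9, and 43.3 CPM at 48 h (log2 fold change -1.77, SE 0.23, adjusted p = 0.00159). FOSB, another AP-1 subunit, fell by 2.17, and the feedback inhibitors SPRY4 (-1.75) and DUSP6 (-1.80) fell as well. The 24 h libraries spread more than the 48 h ones here, and 24 h library B was the lowest of its group for all 4 genes, but no library of one time reached those of the other. FOSB overlaps ERCC1. FOSL2 was the exception and rose by 0.47. Without 48 h library B 15 fell and 1 rose, and with any 1 library left out at least 10 fell.

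Some ligands of the EGF receptor fell, and the receptor rose. Epiregulin (EREG) was at 67.8, 39.4, and 89.5 CPM at 24 h and at 26.1, 18.8, and 29.1 CPM at 48 h (log2 fold change -1.41, SE 0.24, adjusted p = 0.00376). Amphiregulin (AREG) fell by 1.36, and EGFR rose by 0.59, from 389 ± 44.4 to 584 ± 91.6 CPM. EGF itself was called higher (2.41), but it lay below 1 CPM in all 6 libraries and its call was lost with DESeq2 and without any 1 library other than 24 h B. In all, 3 of 14 tested members of this list rose (21.4%) and 5 fell (35.7%), beside 9.9% and 10% of all genes (median -0.17). Without 48 h library B 2 rose and 5 fell.

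Matrix proteases and TGF-β-related genes fell in larger number than they rose. Of 44 tested members, 14 fell (31.8%) and 5 rose (11.4%), beside 10% and 9.9% of all genes (median -0.17). With any 1 library left out, between 10 and 15 fell. Besides MMP1, the stromelysin MMP10 fell from 2.49, 0.903, and 3.41 CPM to 0.157, 0, and 0.0536 CPM. SERPINE2 (-2.37) and TNC (-1.71), a matrix glycoprotein of healing wounds, came next in size. The increases were smaller and included COL16A1 (1.13) and MMP14 (0.75), a membrane protease. HAS3, a hyaluronan synthase, fell by 1.46 (adjusted p = 0.00297) and overlaps CHTF8. Of 23 YAP and TEAD target genes, 6 rose and 3 fell, with IGFBP3 (1.71) and ANKRD1 (1.71) highest and the ectonucleotidase NT5E (-1.69) and tissue factor F3 (-1.11) lowest. Without 24 h library A 1 of the 23 rose and 2 fell, without 24 h library C 2 and 3, and without 48 h library B 4 and 3. Without 48 h library B, IGFBP3 changed by 0.51 (adjusted p = 0.0311), and its call was lost with DESeq2 and without 24 h library A or C. ANKRD1 lay below 2 CPM in all libraries, and its call was lost without any 1 library other than 24 h C.

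Chaperones of the heat shock response fell more often than they rose. Of 16 members, 9 fell (56.25%) and 2 rose (12.5%), beside 10% and 9.9% of all genes (median -0.33). The 9 that fell include HSPA8 and the inducible HSP70 genes HSPA1A and HSPA1B. HSPA1A was at 203, 169, and 253 CPM at 24 h and at 102, 59.0, and 119 CPM at 48 h (log2 fold change -1.16, SE 0.21, adjusted p = 0.00438). HSPA1B fell by 0.89, and because the coding sequences of the HSPA1A and HSPA1B genes are nearly identical, their counts cannot be fully separated. The increases were those of HSPB8 (0.74) and HSPB1 (0.49). With any 1 library left out, between 8 and 10 fell and between 0 and 2 rose. Neither increase was called without 24 h library A.

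Heat shock genes share a promoter element bound by HSF1, and the RefSeq promoter table (GRCh38.p14) allowed the letters GAANNTTC to be looked for on both strands in the 250 bases before the start site. The letters read the same on both strands. They were present in 6 of the 15 list members with a sequence (40%), against 5.85% of the 27305 promoters of the table. All 6 were called, 4 lower (HSPA8, HSPA1A, HSPA1B, and DNAJA1) and 2 higher (HSPB1 and HSPB8). Of the 15 members with a sequence, 10 were called, with or without the letters. The stretches of the HSPA1A and HSPA8 promoters around a match (1 of 1 and 1 of 2 upstream) are shown because these members fell most, with the matching letters in capitals, 5′ to 3′ on the strand of the gene. A match is a description of the sequence and not evidence of binding in these cells.
HSPA1A (chr6:31815411-31815470, plus strand): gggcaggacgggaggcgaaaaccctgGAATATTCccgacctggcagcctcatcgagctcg
HSPA8 (chr11:123062153-123062212, minus strand): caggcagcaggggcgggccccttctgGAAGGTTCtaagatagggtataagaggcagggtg

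Many interferon-stimulated genes rose. Of 39 tested members, 17 rose (43.6%) and none fell by edgeR (16 and 0 by DESeq2, 20 and 1 at an unadjusted p under 0.05), and the median was 0.40. Over all genes tested, 9.9% rose and 10% fell. With Arg, 21 of 38 tested members rose and 0 fell over the same time (median 0.39). GBP1, a GTPase induced by interferon-γ, was at 5.68, 8.46, and 6.53 CPM at 24 h and at 13.5, 13.9, and 12.3 CPM at 48 h (log2 fold change 0.94, SE 0.17, adjusted p = 0.00495). The transcription factor STAT2, which mediates type I interferon signals, rose by 0.92. TRIM22 (2.73) and GBP2 (2.56) had the largest fold changes, but both were at or below 0.49 CPM in every 24 h library and between 0.945 and 1.82 CPM at 48 h. The TRIM22 call was lost without 24 h library C and the GBP2 call without 24 h library A. IFIT1 (0.00, adjusted p = 0.998) and ISG15 (-0.05, adjusted p = 0.895), targets of type I interferon, were not called. Without 48 h library B 17 rose and 1 fell, and without 24 h library A 7 rose. TRIM22 overlaps TRIM5.

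The interferon-stimulated response element was looked for in the same windows on both strands, as GAAA, any 2 bases, and GAAA. Only 30 of the 39 tested members had a sequence in the table (76.9%), which is too few for a share of the list, so that comparison is void, and 3.07% of all promoters hold the letters. Of the 30 members with a sequence 18 hold the letters, among them 9 of the 15 that were called, so the letters were as frequent in the 15 that were not. The stretches of GBP1 and PARP14 (log2 fold change 0.64), which rose most among these 9, are shown with the letters in capitals. In GBP1 the match lies on the opposite strand and reads as the reverse complement.
GBP1 (chr1:89065301-89065360, minus strand): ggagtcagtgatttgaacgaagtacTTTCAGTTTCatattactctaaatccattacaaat
PARP14 (chr3:122680779-122680838, plus strand): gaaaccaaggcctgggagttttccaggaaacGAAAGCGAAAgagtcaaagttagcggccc

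Genes of sterol and fatty acid synthesis rose. Of 28 cholesterol genes, 14 rose (50%) and none fell by edgeR (17 and 0 by DESeq2, 18 and 0 at an unadjusted p under 0.05), with a median of 0.37. Over all genes tested, 9.9% rose and 10% fell. Without 48 h library B 16 cholesterol genes rose. HMGCS1, the enzyme that makes the precursor of mevalonate, was at 183, 224, and 183 CPM at 24 h and at 327, 397, and 326 CPM at 48 h (log2 fold change 0.83, SE 0.10, adjusted p = 0.00126). TM7SF2 (1.07), a sterol reductase, ABCG1 (0.82), a cholesterol exporter, and LPIN1 (0.80), a phosphatidate phosphatase, rose most beside it, and TM7SF2 overlaps VPS51. Of 18 fatty acid genes, 8 rose (44.4%) and none fell by edgeR (7 and 0 by DESeq2, 10 and 0 at an unadjusted p under 0.05), with a median of 0.32. They include the desaturases FADS2 (0.64) and SCD (0.60), the acetyl-CoA carboxylase ACACB (0.75), and the transcription factor SREBF1 (0.73). The calls of SCD and ACACB were lost without 24 h library A or C and that of FADS2 without C. FADS2 overlaps FADS1, and SREBF1 overlaps RAI1. With any 1 library left out, at least 7 cholesterol and at least 2 fatty acid genes rose. With Arg, the median time change of the cholesterol genes was 0.10 and that of the fatty acid genes 0.24. The difference between the time changes was not called for any of their members in the test of all 12 libraries below. There HMGCS1 differed by 0.52 (edgeR, unadjusted p = 9.68e-04, adjusted p = 0.322) and ABCG1 by -0.29 (adjusted p = 0.888). ACAT2, an acetyl-CoA acetyltransferase gene, was called higher without Arg when 48 h library B was left out (0.49, adjusted p = 0.0422). With all 12 it was not called (0.43, adjusted p = 0.321).

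Targets of FOXO factors and genes raised in starvation had the highest list median, 0.45. Of 22 tested members, 12 rose (54.5%) and 2 fell (9.09%), beside 9.9% and 10% of all genes. With Arg, 16 of the 22 rose and 3 fell over the same time (median 0.48). TSC22D3, a glucocorticoid-induced leucine zipper gene, was at 29.8, 49.8, and 42.3 CPM at 24 h and at 88.6, 127, and 85.2 CPM at 48 h (log2 fold change 1.30, SE 0.18, adjusted p = 0.00186). PIK3IP1 (1.57), an inhibitor of PI3 kinase, and the ubiquitin ligase subunit FBXO32 (1.34) rose, while the D-type cyclin CCND2 (-1.52), which FOXO factors repress, fell. IRS1 (-0.88), the adaptor of the insulin receptor, also fell. Omitting 48 h library B gave 9 and 2 (median 0.36), and omitting 24 h library A gave 3 and 2. The calls of PIK3IP1 and FBXO32 were lost without 24 h library A or C.

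The amino acid stress program moved in parts. Of 40 tested ATF4 target genes, 9 rose (22.5%) and 6 fell (15%), beside 9.9% and 10% of all genes, with a median of 0.17. The share that fell is thus close to that of all genes. With Arg, 9 of the 40 rose and 9 fell over the same time (median -0.02). The counts were 11 and 7 without 48 h library B, 6 and 1 without 24 h library A, and 5 and 1 without 24 h library C. Beside NUPR1, the mitochondrial folate enzyme ALDH1L2 (1.10) and the glycine transporter SLC6A9 (0.72) rose, and so did PHGDH (0.59), the first enzyme of serine synthesis. ATF3 (-0.93), which is also an immediate early gene and lost its call without 24 h library A or C, and ATF5 (-0.51) fell. Of 20 cytosolic aminoacyl-tRNA synthetases, 3 rose and 5 fell (median -0.03), with CARS (0.45) highest and VARS (-0.53), FARSA (-0.46), and KARS (-0.43) lowest among those called. Of 22 genes of the unfolded protein response, 1 fell (PPP1R15A, -0.47) and none rose by edgeR (1 by DESeq2, 2 at an unadjusted p under 0.05).

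Arg and polyamine genes fell more often than they rose. Of 38 tested members (44 listed), 13 fell (34.2%) and 3 rose (7.89%), beside 10% and 9.9% of all genes (median -0.13). With any 1 library left out, between 5 and 13 fell. With Arg, 13 of 37 tested members fell and 6 rose over the same time (median -0.14). The fit without 48 h library B had 13 decreases and 2 increases. ODC1, which turns ornithine into putrescine and is the committed step of polyamine synthesis, was at 672, 536, and 719 CPM at 24 h and at 372, 331, and 391 CPM at 48 h (log2 fold change -0.82, SE 0.10, adjusted p = 0.0014). SRM (-0.87), which makes spermidine, and SMS (-0.52), which makes spermine, fell with it, and so did SAT1 (-1.17), which starts their breakdown. Among the other members, NAGS (-1.29), which makes the activator of a urea cycle enzyme, fell. The cationic amino acid transporter SLC7A2 (-1.02), the arginase ARG2 (-0.98), and the methyltransferase PRMT1 (-0.54) fell too. ASS1 (0.60), which joins citrulline and aspartate on the route to Arg, and the transporter subunit SLC7A7 (0.89) rose. The calls of NAGS, SLC7A2, and ARG2 were lost without 24 h library A or C, and ARG2 overlaps VTI1B. Library B was the lowest 48 h library for ODC1, SRM, SAT1, SLC7A2, ARG2, and NAGS.

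Cell cycle genes showed no common direction. Of 76 genes of mitosis and G2/M, 14 rose and 14 fell (18.4% each, median 0.03), where 9.9% of all genes rose and 10% fell. KIF20B (0.61), a kinesin, SMC2 (0.45), a condensin subunit, and MKI67 (0.42) rose, while CKS2 (-0.65), a subunit of cyclin-dependent kinases, and the ubiquitin-conjugating enzyme UBE2S (-0.56) fell. UBE2S overlaps RPL28, which held more counts. CKS2 was at 119, 110.2, and 125 CPM at 24 h and at 79.2, 69.6, and 77.4 CPM at 48 h. With any 1 library left out, between 2 and 14 rose and between 2 and 13 fell. Of 59 replication genes, 9 rose (15.3%) and 3 fell (5.08%), with a median of 0.03. LIG1 (0.58) and RRM2 (-0.54) were the extremes among those called. Of 8 CDK inhibitors, CDKN1A (0.54) and CDKN2B (0.76) rose, the latter with a call that was lost with DESeq2 and without 24 h library A, 24 h library C, or 48 h library B. CDKN1C was at 103, 108, and 98.3 CPM at 24 h and at 194, 49.3, and 161 CPM at 48 h. It was not called with all libraries (log2 fold change 0.39, adjusted p = 0.445), but without 48 h library B its value was 0.79 and it was called higher. Of 30 p53 targets, 5 rose (16.7%) and 4 fell (13.3%), with a median of 0.19. The stress cytokine GDF15 (1.28) and the kinase PLK3 (-0.91) were the extremes among those called.

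Of the genes in the title of the study, SRSF5 rose and the other two did not pass the test. SRSF5, a splicing factor of the SR family (chromosome 14, 69726900 to 69772005, plus strand), was at 88.2, 95.1, and 92.7 CPM at 24 h and at 132, 148, and 134 CPM at 48 h (log2 fold change 0.58, SE 0.08, adjusted p = 0.00159). It was the exception in its family, since of 14 SR factors only SRSF5 rose (7.14%) and 5 fell (35.7%), beside 9.9% and 10% of all genes. The median was -0.21, and those that fell include SRSF8 (-0.35), SRSF3 (-0.34), and SRSF7 (-0.28). Without 24 h library A or C 1 SR factor fell, without 48 h library A or C 2 fell, and without 48 h library B 5 fell. The calls of SRSF7 and SRSF8 were each lost in 3 of the 6 single-library omissions, while SRSF5 and SRSF3 kept theirs in all 17 alternative fits. SKP2, the substrate adaptor of an SCF ubiquitin ligase, was at 269, 296, and 273 CPM at 24 h and at 244, 310.0, and 252 CPM at 48 h (log2 fold change -0.06, SE 0.09, adjusted p = 0.709), with library B the highest at both times. CYP1A1 was at 19.95, 15.6, and 15.8 CPM at 24 h and at 20.7, 20.4, and 19.7 CPM at 48 h (0.24, SE 0.13, adjusted p = 0.207). AHR, its main activator, gave 0.17 (SE 0.14) and GAPDH 0.10 (SE 0.06), neither called. Of 10 AhR pathway genes, CYP1B1 (1.01) and ARNT (0.58) rose and TIPARP (-0.74) fell. CYP1B1 overlaps RMDN2. Of 11 SCF genes, FBXO32 alone was called.

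Among ribosomal protein, small nucleolar RNA host, and glycolysis genes, every edgeR call with all 6 control libraries was a decrease. Of 87 cytosolic ribosomal protein genes, 10 fell and none rose by edgeR (15 and 0 by DESeq2, 26 and 0 at an unadjusted p under 0.05), with a median of -0.12 and RPL22L1 (-0.72) lowest among those called. Over all genes tested 10% were called lower, so this count is near the background and is not a result about the list. With Arg 29 of them fell over the same time, and with 1 library left out at a time between 3 and 34 fell. Of 22 tested small nucleolar RNA hosts, 6 fell (27.3%) and none rose by edgeR (6 and 0 by DESeq2, 6 and 1 at an unadjusted p under 0.05), with a median of -0.23. With 1 library left out at a time, between 3 and 5 hosts fell. Of 27 genes of glucose uptake, glycolysis, and lactate, 7 fell (25.9%) and none rose by edgeR (7 and 0 by DESeq2, 10 and 3 at an unadjusted p under 0.05), with a median of -0.11. They include HK2 (-0.47), PFKFB3 (-0.44), PFKP (-0.42), and LDHA (-0.31), and none of these 7 kept its call without 24 h library A. Of 36 lysosome and autophagy genes, 10 rose (27.8%) and 2 fell (5.56%), beside 9.9% and 10% of all genes (median 0.13). The increases include the autophagy genes WIPI1 (0.94) and ULK1 (0.92). Without 48 h library B 6 rose, WIPI1 not among them. Without 24 h library A or C 2 rose, and the calls of WIPI1 and ULK1 were lost.

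The remaining lists held few calls, and their counts stand beside the 9.9% of all genes that rose and the 10% that fell. Of 21 tested interleukins, chemokines, and NF-κB feedback genes, 5 rose and 3 fell, with CXCL14 (1.98) and CCL5 (1.55) highest and CXCL8 (-1.97) and the cyclooxygenase gene PTGS2 (-1.76) lowest. CXCL14 was at 21.2, 52.3, and 30.6 CPM at 24 h and at 74.99, 264, and 71.1 CPM at 48 h, with library B highest at both times, and without 48 h library B its log2 fold change was 1.07. The CCL5 call was lost without that library. CXCL8 was at 7.79, 1.52, and 8.27 CPM at 24 h and at 1.10, 1.92, and 1.45 CPM at 48 h, so the groups overlapped. Its call was lost without 24 h library A, 24 h library C, or 48 h library A. Of 11 prostaglandin genes, 4 fell. Of 13 antimicrobial and antiprotease genes, 2 rose and 1 fell. Of 30 NRF2, glutathione, and thioredoxin genes, 3 rose (10%) and 2 fell (6.67%), near the shares of all genes. Of 25 hypoxia-inducible factor targets, 3 rose, with NDRG1 (0.85) highest, and 5 fell, with VEGFA (-0.59) lowest. NDRG1 changed by 0.40 without 48 h library B, and its call was lost with DESeq2. The calls of NDRG1 and VEGFA were lost without 24 h library A or C. Of 7 metallothionein and metal response genes, MT2A (-1.15) fell, with a call that was lost with DESeq2 and without 24 h library A or C, and of 7 aquaporin and hyaluronan genes only HAS3 was called. Of 18 clock genes, PER1 (0.31) rose and 3 fell. Of 8 TXNIP, arrestin domain, and glucose-sensing genes, MLXIPL (1.55) rose and MLX (-0.38) fell. MLXIPL was low, between 0.405 and 0.677 CPM at 24 h and between 1.40 and 1.66 CPM at 48 h. Its call was lost with all 12 libraries in 1 model and without library A or C of either time. The MLX call was lost without 24 h library A or C. Among nuclear-encoded respiratory genes, 1 of 36 complex I genes rose, and of 41 genes of complexes II to V 2 rose and 1 fell. Of 37 tested histone genes, 1 rose.

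Mitochondrially encoded transcripts split by library at 48 h. Their share of all counts was 1.24% ± 0.0499 (SD, n = 3) at 24 h and 1.05% ± 0.440 at 48 h, a difference of -0.188 percentage points (exact permutation test, two-sided, p = 0.5, with 0.1 the smallest p possible). The 48 h libraries A, B, and C were at 0.906%, 1.55%, and 0.707%, so A and C lay below every 24 h library and B above. None of the 13 mitochondrially encoded protein genes was called by edgeR or DESeq2 (2 fell at an unadjusted p under 0.05), and their median was -0.07. MT-CYB, the cytochrome b of complex III, was at 516, 563, and 532 CPM at 24 h and at 372, 812, and 307 CPM at 48 h. Without 48 h library B, 10 of the 13 were called lower and none higher, with a median of -0.54 and MT-CO3 lowest at -1.02. MT-RNR1 was different: its 48 h libraries, at 249, 232, and 195 CPM, all lay below the 24 h libraries, at 465, 446, and 468 CPM, with library B in between. Nuclear copies of mitochondrial genes may share reads with them.

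The time change without Arg was set against the time change with Arg. With Arg, 2060 genes rose and 2012 fell from 24 to 48 h (28.3% of the genes tested). Of 1414 increases without Arg that were tested in both, 1016 (71.9%) were also increases with Arg, which is 49.8% of the increases with Arg. Of 1428 decreases, 1028 (72.0%) were also called lower with Arg, or 51.3% of its decreases, and 3 genes were called in opposite directions. The 2 comparisons share no library. The difference between the 2 time changes was tested in a model of all 12 libraries, and 2 genes were called by edgeR, none with a higher and 2 with a lower change without Arg (0.0132% of 15148 genes). At an unadjusted p under 0.05 the counts were 576 and 464, and DESeq2 called 13 and 10. MT-RNR1 was at 466, 446, and 469 CPM without Arg at 24 h and between 195 and 249 CPM at 48 h, but with Arg it was at 262, 222, and 209 CPM at 24 h and between 192 and 208 CPM at 48 h (difference -0.83, SE 0.13, adjusted p = 0.0229). FOS, the immediate early AP-1 gene, was at 196, 126, and 163 CPM without Arg at 24 h and between 131 and 135 CPM at 48 h, and with Arg it went from between 36.1 and 43.5 CPM to between 63.0 and 79.5 CPM (difference -1.11, SE 0.17, adjusted p = 0.0229). In both genes, the groups with and without Arg lay farther apart at 24 h than at 48 h. Both calls were lost when any of 8 of the 12 libraries was left out, among them 24 h controls A and C and 48 h control C, which left no gene with a lower change. OXCT1, a ketone body enzyme and next by p, had a difference of 0.52 (SE 0.10, adjusted p = 0.135).

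Without 48 h library B, the same test called 46 genes (0.297% of 15508), 18 higher and 28 lower without Arg. Of the 46, 16 were mitochondrially encoded and all lower. Among the 13 protein genes, 12 were called, with a median difference of -1.41. With all 12 libraries none of the 13 was called, and MT-CO1 had a difference of -1.09 (adjusted p = 0.168). The omitted library was the 48 h control with the highest mitochondrial share, so these calls depend on its omission. MT-CYB (difference -1.57, SE 0.12, adjusted p = 1.23e-07) was, over all 12 libraries, at 517, 563, and 533 CPM without Arg at 24 h and at 372 and 307 CPM in 48 h controls A and C. With Arg, it was at 338, 293, and 354 CPM at 24 h and at 576, 683, and 590.0 CPM at 48 h. Levels thus moved down between the times without Arg and up with Arg in these libraries, and library B, at 812 CPM, lay above the Arg libraries of its time. FOS (-1.10) and MT-RNR1 (-0.85) were also called.

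**Figure D5:**
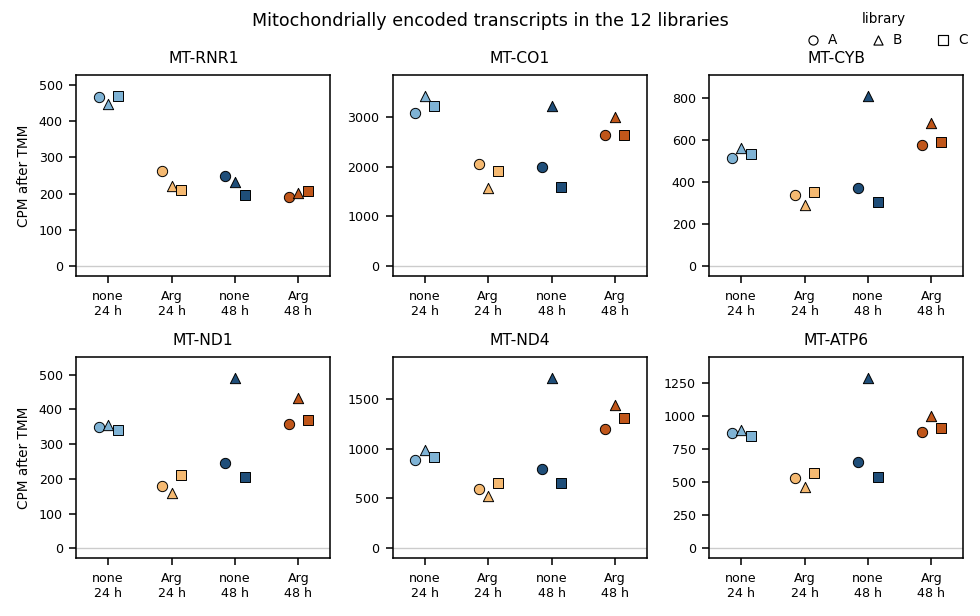
CPM of 6 mitochondrially encoded transcripts in the 12 libraries, with no Arg and Arg side by side at each time and marker shapes for replicates A, B, and C. Except in MT-RNR1, the dark blue triangle (control 48 h B) lies far above the other 48 h controls, which lie below all 24 h controls in every panel.

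Changes were related to gene length. Over 5 classes of equal size by exonic length, the median log2 fold change went from -0.04 in the shortest to 0.10 in the longest, the share called higher from 4.78% to 17.02%, and the share called lower from 9.45% to 7.16%. The median deviation of 48 h library B from A and C went from -0.09 to 0.08 over the same classes. With a correction for length, 1321 genes rose and 1594 fell. The part of length in the changes of single lists was not tested.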

How the data were processed

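The counts of the 12 libraries were used as the authors deposited them. They had filtered the reads with fastp, mapped them to GRCh38 with STAR, and counted reads per gene with featureCounts. The table holds unnormalized whole-number counts beside the position and exonic length of each gene. The tool versions, the annotation release, and the strand setting are not given in the sources used here, so reads of overlapping genes may be shared.

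From these counts, the 3 control libraries at 48 h were compared with the 3 at 24 h with edgeR 4.0.16 in R 4.3.3, using TMM factors, filterByExpr, and an unblocked quasi-likelihood fit. The Benjamini–Hochberg adjustment covered the 14449 genes tested, and an adjusted p under 0.05 made a call. Whether the time change differed without and with Arg was tested as an interaction over all 12 libraries. The share of mitochondrially encoded counts was compared with an exact permutation test. Alternatives were DESeq2 1.42.0, other scalings and filters, a replicate block, all 12 libraries in 1 model, removal of mitochondrially encoded genes, a correction for exonic length (lowess, span 0.3), and omission of each library. The test was checked on simulated data of 14210 genes for the time comparison, where 100 of 100 genes with a log2 change of 1.5 and 77 of 100 with 0.6 were recovered with 5 false calls. For the difference between time changes, simulated with 14858 genes, 97 and 48 of 100 were recovered with 7 false calls. The simulated counts were drawn independently, with a spread set by expression level and no library standing apart. Only genes above a minimum level were changed. The real libraries differ from this, so these figures do not give the recovery or false calls in the data.

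The members and the 43 gene lists were chosen with earlier results of these data known. Named genes are the 10 in each direction with the smallest p, up to 4 called members of each list with the largest change (at most 2 with the smallest p where none was called), the genes of the study title with AHR and GAPDH, the 5 in each direction with the largest deviation of control 48 h library B among genes of at least 10 CPM, the 3 with the smallest p for the difference, and cell type markers. ACAT2, ASS1, ATF5, CDKN1C, COL16A1, DNAJA1, ECM1, EGFR, ELOVL4, FOSL2, HSPB1, IFIT1, IRS1, ISG15, KRT6C, MKI67, MMP14, MT-CYB, ODC1, PARP14, PHGDH, PRMT1, SLC7A7, SMC2, SMS, SPRR1B, and SRM fall outside that rule and were chosen after their values were seen. Some genes that the rule selects are not reported here. Promoter sequences are from RefSeq (GRCh38.p14).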

Additional observations from a re-analysis of the deposited data

Results flagged for a closer look

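The change of MT-RNR1 from 24 to 48 h differed between the conditions by -0.83 on the log2 scale (without Arg minus with Arg, edgeR interaction test, adjusted p = 0.0229), with all 3 libraries without Arg at 24 h above all others. For FOS, the same difference was -1.11 (adjusted p = 0.0229), with 36.1 to 43.5 CPM at 24 h and 63.0 to 79.5 CPM at 48 h in the Arg libraries. Each was picked out because the difference itself passed the test over all 12 libraries.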

How the results depend on the processing

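With 1 control library left out at a time, between 422 and 1585 genes rose and between 406 and 1719 fell, with the fewest calls without 24 h library A and the most without 24 h library B. Leaving out both B libraries, an alternative chosen after seeing the data, gave 2177 and 2391. For the difference between the time changes, DESeq2 called 13 higher and 10 lower and the fit without a filter on low counts 37 and 51, and with 1 library left out the counts lay between 0 and 18 and between 0 and 28, the highest without 48 h control B. The cause was not tested. SKP2, which was not called in any of its fits, changed sign with library size scaling (0.0023) and without 48 h library A (0.0076), and its log2 fold changes with 1 library left out spanned -0.17 to 0.0076. Of 156 called genes that were named by rule, 81 kept their call in all alternatives, 75 lost it in at least 1, and 0 reversed. Replicates of the same letter correlated weakly in their deviations (0.058 for A, 0.154 for B, and 0.0439 for C), and 24 h library A correlated best with 48 h library C (0.105), so the letters were not taken to pair the samples. With the replicate block 1969 genes rose and 2075 fell. The 3 libraries per group and between 17787409 and 19040964 counts limit what small changes and low genes can show.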
